A study of Mus musculus with 2 samples.

Results

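The 10 cytokine receptor genes Il2ra, Il2rb, Il2rg, Il7r, Il15ra, Il18r1, Il18rap, Il12rb1, Il12rb2 and Il21r were followed by symbol in single-cell transcriptomes of mouse ileum T cells, where each symbol matched 1 of 55357 gene rows. There were 2 droplet libraries, 1 labelled SAP and 1 labelled Control. In the design, gut T cells from GF mice were cultured with dendritic cells that had been exposed to faecal bacteriophages of SAP mice or of healthy mice, and the FucoID proximity reaction tagged with biotin those T cells to which a dendritic cell presented antigen, so that they could be separated from bystanders. The labels do not expand SAP or GF, do not say which sorted fraction was loaded, and give no age, strain, sex or number of mice. T cells of both libraries came from GF mice and went through the co-culture, so neither library is a baseline without phage-treated dendritic cells. With 1 library per group no test was made. Intervals below are 95% intervals that cover counting error only, not the spread between cultures or mice. Those of levels and ratios treat UMIs as independent, so they also leave out the spread between cells.

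Most of these chains belong to receptors that share parts. The IL-2 and IL-15 receptors share the signalling chains Il2rb and Il2rg; Il2rg, the common gamma chain, also pairs with Il7r and with Il21r, and all of these signal through JAK kinases and STAT proteins. IL-18 binds Il18r1 and needs its accessory chain Il18rap, which signal through an adaptor used by IL-1 family receptors, and IL-12 binds Il12rb1 together with Il12rb2. In the gut epithelium, IL-15 is known to maintain intraepithelial lymphocytes, above all gamma delta and CD8 alpha-alpha cells, while IL-7 maintains naive and memory T cells, and IL-12 with IL-18 drives interferon gamma production.

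Cells were gated on UMIs, the tagged molecules counted per gene and cell. Gamma delta cells had at least 2 Trdc UMIs and no Cd8b1 or Cd4, CD8 alpha-beta cells had Cd8b1 and no Trdc or Cd4, Cd8a-only cells had Cd8a alone, and CD4 cells had Cd4 alone of these 4 genes. The gates held 1595 gamma delta, 540 CD8 alpha-beta, 1183 Cd8a-only and 164 CD4 cells of 4651 T cells in SAP, against 1746, 535, 1436 and 183 of 5251 T cells in Control. Another 648 SAP and 758 Control T cells had none of the 4 genes, with medians of 2305.5 and 2368 UMIs against 3436 and 3147 over all T cells. The remaining 521 SAP and 593 Control cells were mixed. The libraries shared 6 barcode sequences, and 163 SAP and 63 Control barcodes were over the limit of 10% mitochondrial UMIs.

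The CD4 and gamma delta gates carried the markers of their names, with limits. The CD8 alpha-beta gate was not set apart by its list. Levels are given in CPM, the UMIs of a gene scaled to the same total of UMIs in every gate and library. The genes that define the gates (Trdc, Cd8b1, Cd8a and Cd4) were left out of the sums. The CD8 alpha-beta list (5 genes, among them Trac, Cd5 and Thy1) summed to 2954 and 3251 CPM in CD8 alpha-beta cells of SAP and Control. In CD4 cells that list summed to 3013 and 2906 CPM, and in Cd8a-only cells to 2997 and 3044 CPM. Summed over the CD4 list (5 genes, among them Cd40lg, Icos and Maf), the level was 1979 and 2080.2 CPM in CD4 cells of SAP and Control, against 50.4 and 45.8 CPM in gamma delta cells. It was 680 and 682 CPM in CD8 alpha-beta cells, and 646 and 815 CPM in cells with none of the 4 genes. Of the 4 gates, CD4 cells were also highest for the NK and innate lymphoid list (6 genes, among them Rora and Gata3). That list summed to 596 and 562 CPM in CD4 cells, against 286 and 307 CPM in CD8 alpha-beta cells. The gamma delta list (4 genes) summed to 1089.7 and 1077 CPM in gamma delta cells of SAP and Control, but also to 591 and 561 CPM in Cd8a-only cells. The Cd8a-only gate is therefore a gate on transcripts, not a lineage: at these depths it can hold cells whose Trdc, Cd8b1 or Cd4 was not caught. The natural intraepithelial list (Fcer1g, Tyrobp, Cd160, Itgae, Klra7) was high in gamma delta (3095 and 3042 CPM) and Cd8a-only cells (3363 and 3466 CPM) of SAP and Control, and lower in CD8 alpha-beta (948 and 875 CPM) and CD4 cells (228 and 252 CPM). Foxp3, the regulatory T cell factor, was found in only 5 SAP and 7 Control CD4 cells, too few to split the receptors by it.

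Each receptor gene was measured as UMIs summed over a gate and divided by all UMIs of that gate. These are 3-prime end counts that are not divided by transcript length, so levels are compared between cells and not between genes. A gene was eligible for a fold statement with at least 20 CPM in 1 of the sums compared and 50 UMIs over both. A difference between gates was called at 1.5-fold the same way in both libraries. A gene that is eligible through its level in 1 gate alone can only be called higher in that gate. Across the 6 pairs of the 4 gates the receptor genes gave 18 such calls, and all of them fell on 5 genes: Il2rb, Il7r, Il18r1, Il18rap and Il12rb2.

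The start-site windows of the 4 genes that were higher in CD4 cells are shown because these genes moved together between gates. They are 300-base RefSeq windows on GRCm38.p6, from 250 bases before to 50 after an annotated start, read along the gene's strand; 8 of the 10 receptor genes had a window in that table, and Il2rb and Il12rb1 did not. Capitals mark TTCNNNGAA, the palindrome that STAT factors bind, and TGTGGT, a core bound by RUNX factors, read on both strands (ACCACA is the RUNX core on the other strand). TTCNNNGAA stood in 2726 of 32851 windows of this length (8.30%) and TGTGGT in 5506 (16.8%), and the motifs did not overlap in any window of the receptor genes. The windows were Il7r at chr15:9529827-9530126 (minus strand), Il18r1 at chr1:40465756-40466055 (plus strand, 1 of its 3 listed windows), Il18rap at chr1:40515112-40515411 (plus strand) and Il12rb2 at chr6:67376139-67376438 (minus strand).
Il7r: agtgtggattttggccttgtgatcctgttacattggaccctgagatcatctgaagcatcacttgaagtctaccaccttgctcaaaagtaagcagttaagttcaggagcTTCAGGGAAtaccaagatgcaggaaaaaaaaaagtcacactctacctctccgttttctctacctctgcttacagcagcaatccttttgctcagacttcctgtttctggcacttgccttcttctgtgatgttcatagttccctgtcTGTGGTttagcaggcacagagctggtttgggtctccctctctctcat
Il18r1: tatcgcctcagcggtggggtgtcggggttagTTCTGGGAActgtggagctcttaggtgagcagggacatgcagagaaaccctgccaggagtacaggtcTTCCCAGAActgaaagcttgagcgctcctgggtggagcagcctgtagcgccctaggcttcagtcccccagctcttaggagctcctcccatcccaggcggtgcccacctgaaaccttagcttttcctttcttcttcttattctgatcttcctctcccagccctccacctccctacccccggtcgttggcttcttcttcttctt
Il18rap: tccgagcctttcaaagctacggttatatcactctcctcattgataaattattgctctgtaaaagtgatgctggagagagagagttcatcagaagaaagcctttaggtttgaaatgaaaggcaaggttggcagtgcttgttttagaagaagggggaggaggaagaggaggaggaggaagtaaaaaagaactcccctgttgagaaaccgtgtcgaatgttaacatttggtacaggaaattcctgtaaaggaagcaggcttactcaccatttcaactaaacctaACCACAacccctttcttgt
Il12rb2: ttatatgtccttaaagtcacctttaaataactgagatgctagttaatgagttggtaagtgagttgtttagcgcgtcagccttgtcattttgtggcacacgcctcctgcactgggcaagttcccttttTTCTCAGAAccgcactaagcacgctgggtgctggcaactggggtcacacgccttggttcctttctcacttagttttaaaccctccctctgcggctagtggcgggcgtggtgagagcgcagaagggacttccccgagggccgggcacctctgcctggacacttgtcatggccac
The Il7r window held both motifs, the Il18r1 window 2 STAT palindromes, the Il12rb2 window 1, and the Il18rap window the RUNX core alone. Neither of the other Il18r1 windows held a STAT palindrome, and 1 of them held a RUNX core. Over the 11 windows of the 8 receptor genes a STAT palindrome stood in 3 and a RUNX core in 5, among them those of Il2rg and Il21r. These matches describe letters in a window and say nothing of binding. Il18r1 (chr1:40465552-40500854) and Il18rap (chr1:40515362-40551707) lie next to each other on the same chromosome in that annotation. The others lie at chr15:9506159-9529941 (Il7r), chr15:78479256-78511621 (Il2rb), chrX:101264385-101268255 (Il2rg), chr2:11642792-11693194 (Il2ra), chr2:11705172-11733985 (Il15ra), chr6:67285986-67376293 (Il12rb2), chr8:70808360-70823542 (Il12rb1) and chr7:125603252-125634397 (Il21r), where Il2ra and Il15ra share a stretch of chromosome 2.

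**Figure D1:**
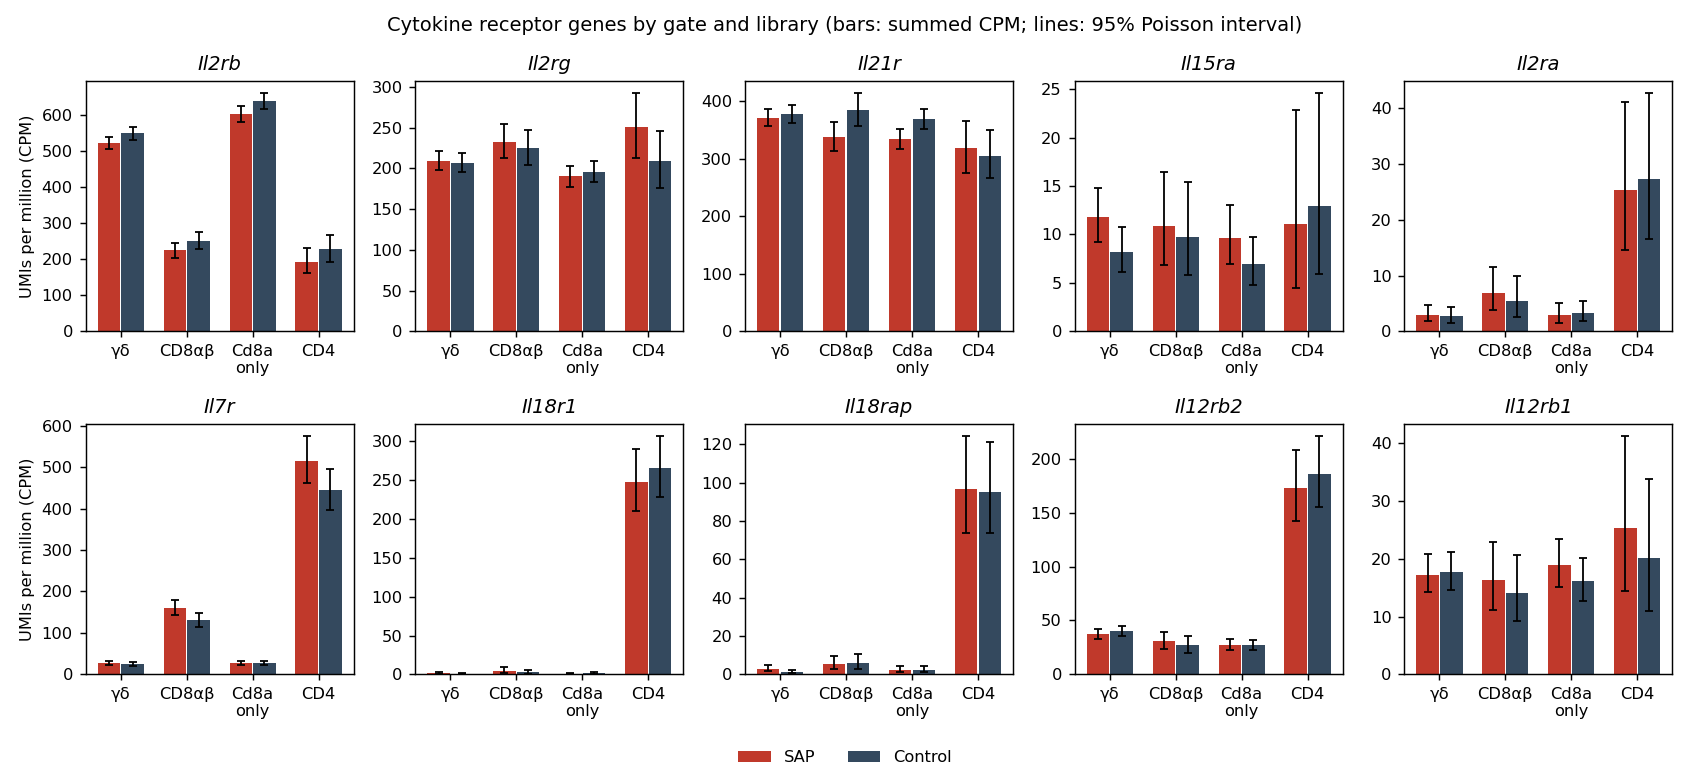
Level of each of the 10 receptor genes, in CPM (linear axis from 0, own scale per gene), in gamma delta (γδ), CD8 alpha-beta (CD8αβ), Cd8a-only and CD4 cells, with SAP (red) left of Control (dark blue). Bars are summed CPM of 1 library each and lines are exact 95% Poisson intervals; Il2rb is higher in gamma delta and Cd8a-only cells than in the other gates, whereas Il7r, Il18r1, Il18rap and Il12rb2 are highest in CD4 cells in both libraries.

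The shared IL-2 and IL-15 signalling chain Il2rb separated the gates into a pair of levels. It stood at 523 CPM (505 to 541) in SAP and 550 CPM (532 to 568) in Control gamma delta cells, and at 603 CPM (581 to 627) in SAP and 639 CPM (616 to 662) in Control Cd8a-only cells. In CD8 alpha-beta cells it stood at 225 CPM (205 to 246) in SAP and 251 CPM (229 to 275) in Control, and in CD4 cells at 193 CPM (161 to 231) in SAP and 228 CPM (194 to 266) in Control. Gamma delta cells thus had 2.33 times (2.11 to 2.57) the CD8 alpha-beta level in SAP and 2.19 times (1.99 to 2.42) in Control, and Cd8a-only cells 2.69 times (2.43 to 2.97) and 2.55 times (2.31 to 2.81). The CD4 level was 0.37 and 0.41 times that of gamma delta cells and 0.32 and 0.36 times that of Cd8a-only cells in SAP and Control. CD8 alpha-beta and CD4 cells were neighbours that were not called apart (CD4 over CD8 alpha-beta 0.86, 0.70 to 1.05, in SAP and 0.91, 0.75 to 1.09, in Control), and gamma delta over Cd8a-only cells was 0.87 and 0.86, below the fold used. With stricter gates (2 UMIs, 3 for Trdc) the CD4 over CD8 alpha-beta value of Il2rb turned to 0.08 in SAP and 0.29 in Control on the log2 scale, against -0.22 and -0.14 as reported.

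Il7r, the IL-7 receptor alpha chain, ran the other way. It was highest in CD4 cells, at 515 CPM (461 to 575) in SAP and 444 CPM (396 to 496) in Control. CD8 alpha-beta cells followed with 160 CPM (143 to 179) in SAP and 130 CPM (114 to 148) in Control. Gamma delta cells had 26.8 CPM in SAP and 25.2 CPM in Control, and Cd8a-only cells 26.7 and 27.6 CPM, which did not differ beyond their intervals. CD4 cells had 3.22 and 3.41 times the CD8 alpha-beta level in SAP and Control, and 19.2 and 17.6 times the gamma delta level. Gamma delta and Cd8a-only cells had 0.17 and 0.19, and 0.17 and 0.21, times the CD8 alpha-beta level. With stricter gates the Control log2 ratio of Il7r was -3.00 for Cd8a-only over CD8 alpha-beta cells, against -2.24 as reported, and 5.25 for CD4 over Cd8a-only cells, against 4.01. Over all genes eligible in gamma delta over CD8 alpha-beta cells, 6.64% were higher and 1.98% lower by the same rule, and of the 5 eligible receptor genes 1 was higher (Il2rb) and 1 lower (Il7r). For Cd8a-only over CD8 alpha-beta cells the shares over all genes were 8.63% higher and 2.01% lower, and the same 2 of 5 receptor genes were called. Between gamma delta and Cd8a-only cells 0 of 5 receptor genes were called, beside 0.292% higher and 2.30% lower over all genes.

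The other pairing chains of the IL-2, IL-15 and IL-21 receptors were near even or scarce. Of the 4 gates, Il2rg, the common gamma chain, was lowest in Cd8a-only cells of both libraries, at 190 and 196 CPM in SAP and Control, and at most 251 CPM (SAP, CD4 cells) and 225 CPM (Control, CD8 alpha-beta cells), and none of its gate ratios reached 1.5-fold. Over the 4 gates Il21r, the IL-21 binding chain, lay between 319 and 372 CPM in SAP and between 306 and 385 CPM in Control, with gamma delta cells highest in SAP and CD8 alpha-beta cells highest in Control. Il15ra, the chain that presents IL-15 to neighbouring cells, gave 170 UMIs in 4651 SAP T cells and 138 in 5251 Control T cells, 9.74 and 7.89 CPM, and its intervals in the 4 gates overlapped within each library. Il2ra, the alpha chain that makes the IL-2 receptor high-affinity and a marker of activation and of regulatory T cells, was the scarcest by UMIs, with 99 in SAP and 118 in Control. It reached 25.4 CPM (14.5 to 41.2; 16 UMIs) in SAP and 27.4 CPM (16.5 to 42.8; 19 UMIs) in Control CD4 cells, against 2.98 and 2.68 CPM in gamma delta cells. That gap lies outside the counting intervals, but with fewer than 50 UMIs over both gates no fold is called.

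The IL-18 receptor pair was concentrated in CD4 cells. Il18r1 had 247 CPM (210 to 289) in SAP and 265 CPM (228 to 306) in Control CD4 cells. It had 4.93 and 2.70 CPM in CD8 alpha-beta cells, 1.88 and 1.10 CPM in gamma delta cells, and 0.898 and 1.26 CPM in Cd8a-only cells of SAP and Control; those values outside CD4 cells rest on 4 to 12 UMIs each. The CD4 cells thus had 50.2 times (26.6 to 107) the CD8 alpha-beta level in SAP and 98.1 times (41.3 to 306) in Control, and 131 and 241 times the gamma delta level. These ratios move with a few cells: on the log2 scale the Control ratio over CD8 alpha-beta cells was 8.42 with stricter gates, against 6.62, and the SAP ratio over gamma delta cells 6.15 without doublet removal, against 7.04. Il18rap had 96.7 CPM (74.0 to 124) in SAP and 95.1 CPM (73.6 to 121) in Control CD4 cells, 17.9 and 16.0 times the CD8 alpha-beta level. Both chains also had UMIs in T cells with none of the 4 gate genes, where Il18r1 stood at 56.0 and 55.0 CPM and Il18rap at 20.1 and 24.4 CPM in SAP and Control.

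Of the IL-12 receptor, one chain followed the gates and the other did not. Il12rb2, the chain that makes the receptor specific for IL-12, had 173 CPM (142 to 209) in SAP and 186 CPM (155 to 221) in Control CD4 cells, against 31.0 and 27.0 CPM in CD8 alpha-beta, 37.5 and 40.01 CPM in gamma delta and 27.4 and 27.0 CPM in Cd8a-only cells. The CD4 level was 5.57 and 6.88 times that of CD8 alpha-beta cells in SAP and Control. Il12rb1, which the IL-23 receptor also uses, lay between 14.1 and 25.4 CPM in each of the 4 gates and both libraries. Over CD8 alpha-beta cells, CD4 cells were higher for 4 of 7 eligible receptor genes (Il7r, Il18r1, Il18rap, Il12rb2) and lower for 0, beside 4.71% and 5.33% of all genes. Over gamma delta cells the same 4 of 8 eligible genes were higher and Il2rb was lower, beside 6.52% and 13.6% of all genes; over Cd8a-only cells it was again these 4 of 8 and Il2rb, beside 6.50% and 15.5%.

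Several values moved beside these gate differences. Fcer1g, an adaptor of natural killer and Fc receptors that natural intraepithelial lymphocytes carry, was at 1450 and 1529 CPM in gamma delta and 1482 and 1583 CPM in Cd8a-only cells of SAP and Control, against 92.6 and 102 CPM in CD8 alpha-beta cells. The epithelial list of 7 genes summed to 113 and 107 CPM in gamma delta and 121 and 122 CPM in Cd8a-only cells of SAP and Control, against 27.1 and 30.8 CPM in CD8 alpha-beta and 12.7 and 23.1 CPM in CD4 cells. Most of it was Epcam, at 95.1 and 93.4 CPM in gamma delta cells; the epithelial genes Krt20, Vil1 and Phgr1 were between 0 and 1.1 CPM in each of the 4 gates. The dendritic list of 7 genes summed to 71.6 and 78.1 CPM in gamma delta, 70.3 and 75.6 CPM in Cd8a-only, 21.7 and 21.6 CPM in CD8 alpha-beta and 14.3 and 15.9 CPM in CD4 cells; most of it was Itgax, an integrin that intraepithelial lymphocytes also carry, and the dendritic genes Flt3 and Cd209a were at 0 in all 4 gates. The part of these genes in the receptor differences was not tested. One Control CD4 cell was rich in immunoglobulin transcripts and brought the plasma list to 11404 CPM in that gate, against 121 CPM without it and 109 CPM in SAP. The 18 gate calls were the same without the immunoglobulin-rich cells, a set chosen after seeing the data.

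Barcodes with no T cell receptor or CD3 transcript were read for comparison. Those that passed the cell filters numbered 74 in SAP and 57 in Control, with medians of 771.5 and 708 UMIs; at that depth they can include T cells whose transcripts were not caught, which was not tested. They had Il2rb at 96.7 and 83.7 CPM, Il2rg at 62.9 and 53.8 CPM, Il21r at 116 and 114 CPM and Il7r at 29.0 and 47.8 CPM. Il2rb in every gate was above those values; Il7r in gamma delta and Cd8a-only cells was not. The Il18r1 level in these barcodes, 9.67 and 29.9 CPM from 2 and 5 UMIs, was also above that of gamma delta cells.

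To compare shares of cells across depths, UMIs of every cell were drawn down to 2000, and 1026 SAP and 1149 Control T cells with fewer were left out. Il2rb was found in 61.7% (58.5 to 64.9) of SAP and 61.2% (58.3 to 64.1) of Control Cd8a-only cells and in 53.6% and 56.8% of gamma delta cells. CD8 alpha-beta cells had it in 32.4% and 35.3%, and CD4 cells in 34.1% and 32.9%. The share therefore separated the gates as the level did. Among cells with any Il2rb UMI after thinning, 885 of 1814 T cells in SAP and 1101 of 2191 in Control had 2 or more.

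Il7r was found in 38.4% (30.3 to 47.1) of SAP and 31.5% (24.2 to 39.7) of Control CD4 cells, in 21.3% and 16.3% of CD8 alpha-beta cells, in 4.15% and 3.21% of gamma delta cells and in 3.52% and 4.01% of Cd8a-only cells. Il18r1 was found in 28.3% and 29.5%, Il12rb2 in 26.1% and 22.1%, Il18rap in 13.8% and 16.1% and Il2ra in 5.07% and 6.04% of CD4 cells of SAP and Control. In gamma delta cells Il18r1 was in 0.423% and 0.131%, Il18rap in 0.352% and 0.327% and Il2ra in 0.282% and 0.327%. The 4 CD4-high chains were therefore found in a minority of CD4 cells, with single cells of up to 27 Il7r and 10 Il18r1 UMIs in SAP and 18 and 11 in Control before thinning.

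Il2rb and Il7r were next asked for in the same cell. After thinning, 60.4% and 59.8% of Cd8a-only cells and 52.4% and 55.8% of gamma delta cells of SAP and Control had Il2rb without Il7r, while 2.20% and 2.55%, and 2.96% and 2.16%, had Il7r without Il2rb. CD8 alpha-beta cells held both kinds, with 25.9% and 29.8% Il2rb without Il7r and 14.9% and 10.9% Il7r without Il2rb. CD4 cells were close to even, with 20.3% and 24.8% against 24.6% and 23.5%. Both genes were found together in 13.8% and 8.05% of CD4 cells and in 1.197% and 1.05% of gamma delta cells.

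Over all T cells, those with Il7r had Il2rb less often, in 108 of 331 cells (32.6%, 27.6 to 38.0) in SAP and 108 of 336 (32.1%, 27.2 to 37.4) in Control, against 51.8% (50.1 to 53.5) and 55.3% (53.7 to 56.9) of cells without Il7r. The gap was present inside gamma delta cells, where 28.8% of SAP and 32.7% of Control cells with Il7r had Il2rb, against 54.7% and 57.6% of those without. It was present inside Cd8a-only cells too, at 37.5% and 36.4% against 62.6% and 62.3%. In CD8 alpha-beta cells the shares were close, 30.2% and 33.3% with Il7r against 33.0% and 35.7% without. In CD4 cells the libraries differed in sign, 35.8% with against 32.9% without in SAP and 25.5% against 36.3% in Control, with intervals that overlapped.

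**Figure D2:**
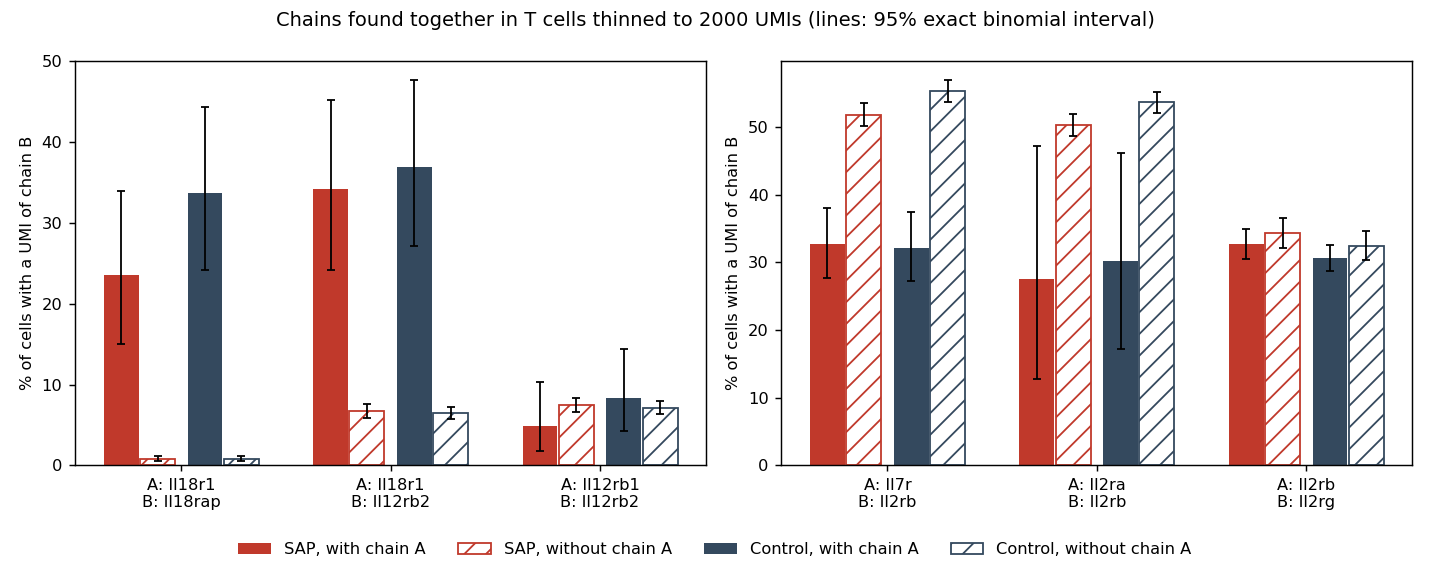
Percent of T cells, thinned to 2000 UMIs, that had a UMI of chain B among cells with a UMI of chain A (filled) and without one (hatched), SAP (red) left of Control (dark blue), with exact 95% binomial intervals; each bar is 1 library. Il18rap and Il12rb2 were found more often beside Il18r1 and Il2rb less often beside Il7r or Il2ra, while Il12rb2 beside Il12rb1 and Il2rg beside Il2rb lay within overlapping intervals.

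The IL-18 receptor chains were found together. Il18rap was in 20 of 85 SAP cells (23.5%, 15 to 34.0) and 31 of 92 Control cells (33.7%, 24.2 to 44.3) with Il18r1, against 0.791% and 0.823% of T cells without it. Within CD4 cells alone the shares were 12 of 39 (30.8%, 17.0 to 47.6) in SAP and 16 of 44 (36.4%, 22.4 to 52.2) in Control, against 7.07% and 7.62%. The pairing was thus present inside the gate as well as between gates.

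Il12rb2 joined them. Of T cells with Il18r1, 34.1% (24.2 to 45.2) in SAP and 37.0% (27.1 to 47.7) in Control had Il12rb2, against 6.72% and 6.46% of those without. Within CD4 cells 18 of 39 (46.2%, 30.1 to 62.8) and 21 of 44 (47.7%, 32.5 to 63.3) had it, against 18.2% (11.2 to 27.2) and 11.4% (6.05 to 19.1). In T cells with none of the 4 gate genes the same pair stood at 33.3% and 28.6%, against 9.12% and 9.41%. By contrast the chains that together form the IL-12 receptor gave no such gap: Il12rb2 was in 4.88% (1.81 to 10.3) of SAP and 8.33% (4.23 to 14.4) of Control cells with Il12rb1, against 7.45% and 7.103% without.

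The remaining pairs were weak or rested on few cells. T cells with Il2ra had Il2rb in 8 of 29 cells (27.6%) in SAP and 13 of 43 (30.2%) in Control, against 50.2% and 53.7% of those without. Il18r1 was in 1.54% and 1.32% of cells with Il2rb, against 3.15% and 3.30% of those without. Il2rg was in 32.7% and 30.6% of cells with Il2rb, against 34.3% and 32.4% without, and Il15ra in 1.87% and 1.60%, against 1.88% and 1.204%. Of the 10 pairs examined, 5 had intervals that did not overlap in either library. They were Il18r1 with Il18rap, Il18r1 with Il12rb2, Il7r with Il2rb, Il2ra with Il2rb, and Il2rb with Il18r1. Pairs of other genes were not counted in this way, so the count describes the chosen pairs and sets no trait of receptor genes apart. All of Il2rb, Il2rg and Il15ra were found in 0.41% of SAP and 0.22% of Control T cells.

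Il2rb and Il7r also differed inside gates between cells with and without Fcer1g, a split chosen after seeing the data. In Cd8a-only cells, Il2rb was 710 and 718 CPM in cells with Fcer1g of SAP and Control, against 286 and 368 CPM in cells without it, a ratio of 2.49 (2.21 to 2.80) and 1.95 (1.76 to 2.17). Il7r was 2.40 and 5.95 CPM with Fcer1g, against 99.1 and 102 CPM without, a ratio of 0.024 and 0.059. Most Il7r UMIs of the Cd8a-only gate, 111 of 119 in SAP and 110 of 132 in Control, came from the 363 and 432 cells without Fcer1g. By the rule of 1.5-fold in both libraries, 8.39% of all genes were higher and 5.17% lower in this split.

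Gamma delta cells showed the same order with smaller ratios. Il2rb was 578 and 600 CPM with Fcer1g, against 286 and 340 CPM without, a ratio of 2.02 and 1.76, beside 2.90% of genes higher. Il7r was 14.7 and 14.6 CPM with Fcer1g, against 79.4 and 69.3 CPM without, a ratio of 0.18 and 0.21, beside 1.35% of genes lower. In CD8 alpha-beta cells, of which only 47 in SAP and 49 in Control had Fcer1g, Il2rb with Fcer1g was 1.83 and 1.99 times the level without (1.91% of genes higher), and Il7r 0.61 and 0.67 times (3.25% of genes lower), which missed the fold used in Control. Il2rg was nearly even in this split, at 1.16 and 1.08 in Cd8a-only cells and 0.78 and 0.81 in gamma delta cells. In T cells with none of the 4 gate genes, Il2rb with Fcer1g was 2.97 and 2.16 times the level without (4.85% of genes higher), and Il7r was 0.44 and 0.10 and Il18r1 0.20 and 0.23 times (1.97% of genes lower).

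Cells with Fcer1g were deeper, and other genes moved with the split. Medians in Cd8a-only cells were 3863.5 and 3464 UMIs with Fcer1g, against 2249 and 2331.5 without, and in gamma delta cells 3942 and 3561.5, against 3441.5 and 3335.5. Cd5, a surface marker of conventional T cells, was 3.3 and 2.7 CPM with Fcer1g, against 197 and 230 CPM without, in Cd8a-only cells of SAP and Control, and Tyrobp, a partner adaptor of Fcer1g, 1249 and 1279 CPM, against 69.6 and 79.5 CPM. Thy1, another such surface marker, was 4.5 and 7.6 CPM with Fcer1g, against 93.7 and 122 CPM without, in Cd8a-only cells. In gamma delta cells Thy1 was 16.0 and 15.6 CPM with Fcer1g, against 81.0 and 79.9 CPM without, while Cd5 was 4.1 and 1.4 CPM with Fcer1g, against 1.7 and 7.3 CPM without, so that its direction differed between the libraries. The part of depth in the Fcer1g split was not tested.

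**Figure D3:**
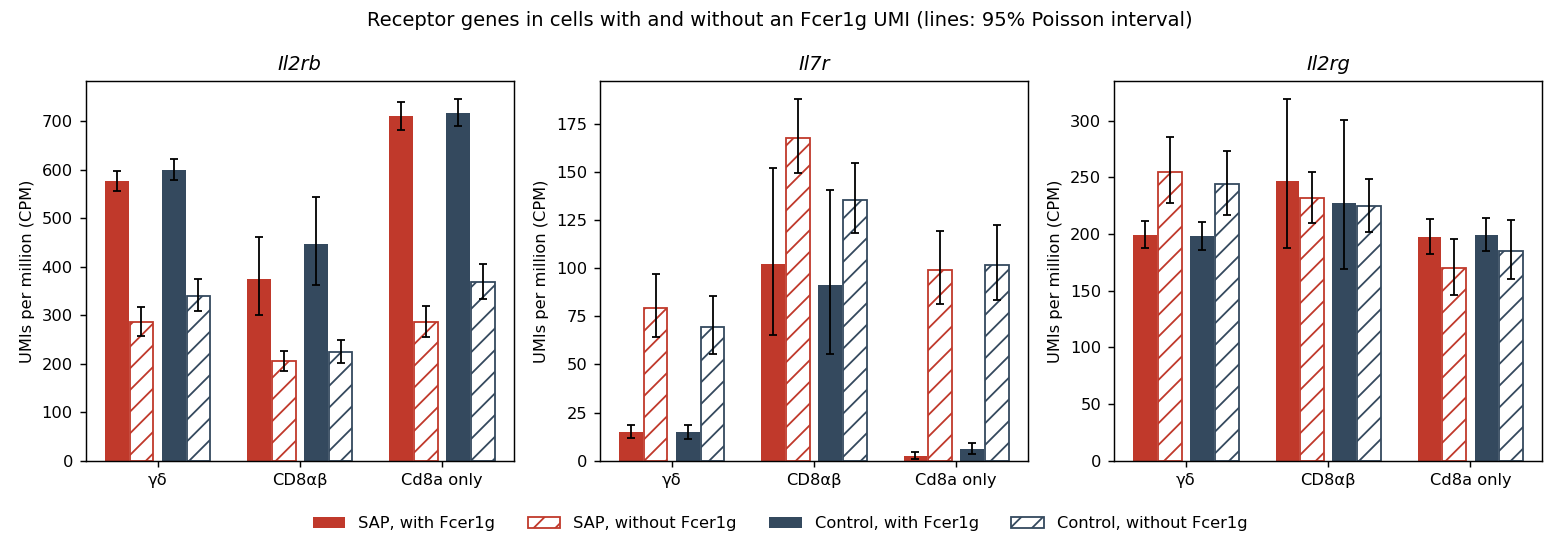
Level of Il2rb, Il7r and Il2rg in CPM (linear axes from 0) in gamma delta (γδ), CD8 alpha-beta (CD8αβ) and Cd8a-only cells with a UMI of Fcer1g (filled) and without one (hatched), SAP (red) left of Control (dark blue), with exact 95% Poisson intervals. In each of the 3 gates Il2rb is higher and Il7r lower in cells with Fcer1g, with overlapping Il7r intervals in CD8αβ cells, while Il2rg is closer to even.

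The receptor genes were also set against genes of effector state over all T cells, comparing cells with and without a UMI of each. Cells with Gzmb, the protease of cytotoxic granules, had Il2rb at 509 and 551 CPM in SAP and Control, against 230 and 276 CPM without it (2.21 and 1.999 times; 6.66% of genes higher), and Il7r at 66.9 and 59.9 CPM, against 126 and 142 CPM (0.53 and 0.42 times; 4.93% of genes lower). Cells with Tnfrsf9, the activation receptor 4-1BB, had Il2rb at 668 and 710 CPM, against 398 and 436 CPM (1.68 and 1.63 times; 2.06% of genes higher). Those cells had less Il7r (0.20 and 0.32 times) and Il18r1 (0.29 and 0.21 times), beside 3.62% of genes lower. Their median depth was 4312.5 and 3723 UMIs, against 3264 and 2967.

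Cells with Ifng ran the other way from those with Tnfrsf9 for Il7r and Il18r1, and cells with Xcl1 did so for Il18r1. Il2rb was not called with Ifng or Xcl1. With Ifng, interferon gamma, Il7r was 121 and 103 CPM, against 64.9 and 65.3 CPM without (1.86 and 1.57 times), and Il18r1 34.2 and 32.6 CPM, against 13.5 and 14.2 CPM (2.53 and 2.30 times), beside 1.07% of genes higher and 0.70% lower. With the chemokine Xcl1, Il18r1 was 31.0 and 33.5 CPM, against 15.7 and 15.6 CPM (1.98 and 2.14 times), beside 0.843% of genes higher and 1.47% lower. Il12rb2 was even across Ifng, at 1.02 and 0.99 times.

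Itgae, the integrin that holds lymphocytes in the epithelium, separated the CD4-high chains. Cells with Itgae had Il18r1 at 4.49 and 3.71 CPM in SAP and Control, against 75.9 and 64.6 CPM without (0.06 and 0.06 times). Il18rap was 0.13 and 0.11, Il7r 0.18 and 0.23 and Il12rb2 0.43 and 0.45 times, beside 2.02% of genes lower and 4.66% higher. Cells with Mki67, a marker of dividing cells, had less Il7r, at 48.2 and 13.6 CPM against 79.8 and 76.9 CPM (0.60 and 0.18 times; 2.83% of genes lower, 6.03% higher), from 128 and 136 cells. These state genes differ in level between gates, so their differences and those between gates are not independent: Itgae itself was 678 and 610 CPM in gamma delta, against 151 and 138 CPM in CD4 cells, in the natural intraepithelial list.

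The receptor genes were then compared between the libraries. Over all T cells, Il2rb was 455 CPM (445 to 465) in SAP and 503 CPM (493 to 514) in Control, a ratio of 0.904 (0.877 to 0.932). Il21r was 346 CPM (337 to 355) in SAP and 379 CPM (370 to 388) in Control, a ratio of 0.913 (0.882 to 0.946). Il2rg was even at 0.997 (0.951 to 1.04), Il7r 1.06 (0.978 to 1.14) and Il12rb2 0.917 (0.827 to 1.02). Of these 5 eligible genes 0 passed 1.2-fold, beside 14.8% of 5682 genes (700 higher, 142 lower). With TMM scaling the split over all genes was 405 higher and 460 lower, and with median-of-ratios scaling 450 and 356; the median gene moved on the log2 scale to -0.06 and -0.04, against 0.04. On that log2 scale Il2rb stood at -0.15 as reported, -0.25 with TMM and -0.23 with median-of-ratios scaling, and Il21r at -0.13, -0.23 and -0.21.

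**Figure D4:**
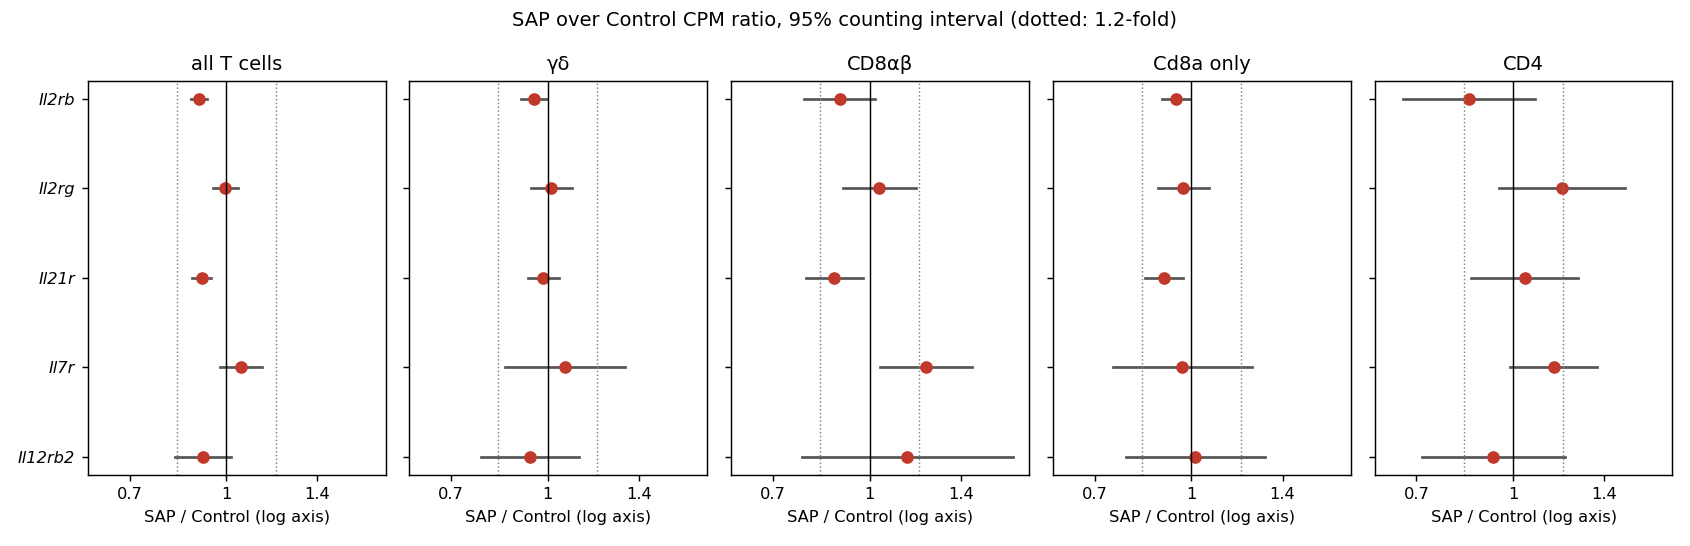
SAP over Control ratio of CPM (log axis) for the 5 receptor genes eligible in all T cells, with exact conditional binomial 95% intervals, in all T cells and in each of 4 gates; the solid line is 1 and dotted lines are 1.2-fold. Il2rb lies below 1 in all 5 panels, and the Il7r point in CD8 alpha-beta cells lies beyond 1.2-fold.

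Within gates the Il2rb ratio was 0.951 (0.907 to 0.998) in gamma delta, 0.944 (0.896 to 0.995) in Cd8a-only, 0.896 (0.785 to 1.02) in CD8 alpha-beta and 0.849 (0.665 to 1.08) in CD4 cells. It was 0.749 (0.673 to 0.833) in cells with none of the 4 genes and 0.836 (0.757 to 0.924) in mixed cells, the shallower gates. The ratio over all T cells, 0.904, includes both. The T cell list (7 genes, among them Cd3e, Trac and Trbc2) was also lower in SAP there. It summed to 3799 CPM in SAP and 5026 CPM in Control in cells with none of the 4 genes, and to 5789 and 6267 CPM in mixed cells. In gamma delta cells it summed to 7483 and 7583 CPM. The part of this in the Il2rb ratios was not tested. Il21r was 0.983 (0.928 to 1.04) in gamma delta, 0.904 (0.843 to 0.969) in Cd8a-only, 0.878 (0.790 to 0.977) in CD8 alpha-beta and 1.04 (0.856 to 1.27) in CD4 cells. In the 4 gates 1 eligible value passed 1.2-fold: Il7r in CD8 alpha-beta cells, with 325 UMIs in 540 SAP cells and 241 in 535 Control cells, a ratio of 1.23 (1.04 to 1.46), beside 35.4% of all genes in that gate. The shares of those cells with Il7r, before thinning, were 30.0% (26.2 to 34.1) in SAP and 23.7% (20.2 to 27.6) in Control, which overlapped. Gamma delta, Cd8a-only and CD4 cells had 0 eligible receptor genes past 1.2-fold, beside 15.4%, 22.2% and 39.8% of all genes. Some genes below the eligible level did lie past that fold there, each with an interval that included 1. Higher in SAP were Il15ra in gamma delta and Cd8a-only cells, Il18r1 and Il18rap in gamma delta cells and Il12rb1 in CD4 cells. Lower in SAP was Il18r1 in Cd8a-only cells. In cells with none of the 4 genes 3 of 7 eligible receptor genes were lower by that fold, beside 59.2% of all genes, and in mixed cells 2 of 5, beside 40.6%.

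Of the shares of T cells, that of Il2rb had library intervals that did not overlap, 50.04% (48.4 to 51.7) in SAP and 53.4% (51.9 to 54.9) in Control; before thinning it was 61.6% (60.2 to 63.0) and 63.0% (61.7 to 64.3), which overlapped. Before thinning Il2rg, at 46.6% (45.2 to 48.0) in SAP and 43.2% (41.8 to 44.5) in Control, and Il7r, at 12.4% (11.43 to 13.3) and 10.6% (9.73 to 11.41), had intervals that did not overlap. How many of all genes had separate library intervals was not counted, so these shares do not set the receptor genes apart from others. After thinning to 2000 UMIs, Il2rg was in 33.5% and 31.5%, Il21r in 44.6% and 45.2%, Il7r in 9.13% and 8.19%, Il12rb2 in 7.37% and 7.14% and Il12rb1 in 3.39% and 3.22% of T cells. The 5 genes below the eligible level were close between libraries or too scarce to place. Their ratios were 1.23 (0.980 to 1.56) for Il15ra, 0.841 (0.637 to 1.11) for Il2ra, 0.993 for Il18r1, 1.002 for Il18rap and 0.996 for Il12rb1.

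Other receptor and signalling genes, from lists of known pathway members, were read with the same rules. The share of all eligible genes past 1.2-fold between libraries was 14.8%, as above; the lists were also read with TMM and median-of-ratios scaling, added after seeing the data. Of 12 other cytokine receptor chains 4 were eligible over all T cells and 0 differed by 1.2-fold between libraries under any of the 3 scalings, with a median log2 ratio of -0.10 as CPM. Il6st, the signalling chain of IL-6 family receptors, was higher than in CD8 alpha-beta cells (18.2 and 16.2 CPM in SAP and Control) in gamma delta cells (51.9 and 50.6 CPM), in Cd8a-only cells (52.3 and 50.7 CPM) and in CD4 cells (36.5 and 44.7 CPM). Of 8 interferon, TGF-beta and other receptors 6 were eligible and 1 was higher in SAP as CPM, Tgfbr1, a TGF-beta receptor kinase, at 33.1 CPM in SAP and 25.7 CPM in Control (1.29 times, 1.14 to 1.46), which was 1.1998 times with TMM, under the fold used, and 1.22 times with median-of-ratios scaling. Ifnar2, a type I interferon receptor chain, was 0.84 times as CPM, within the fold, and 0.78 and 0.79 times with TMM and median-of-ratios scaling, past it. Gamma delta cells had 1.58 and 2.29 times the Tgfbr1 level of CD8 alpha-beta cells in SAP and Control. Il17ra, the IL-17 receptor chain, was 44.4 and 36.04 CPM in CD4 cells, against 17.1 and 23.2 CPM in Cd8a-only cells (2.60 and 1.55 times), and Ifnar2 33.3 and 43.2 CPM, against 21.1 and 27.00 CPM (1.58 and 1.60 times). Of 11 IL-1 family receptors and adaptors 3 were eligible and 0 differed between libraries under any of the 3 scalings; Irak2, a kinase below the IL-1 and IL-18 receptors, was 110.5 and 110.1 CPM in gamma delta cells, against 38.4 and 45.4 CPM in CD8 alpha-beta cells (2.87 and 2.43 times).

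All 11 JAK kinases and STATs were eligible and 0 differed by 1.2-fold between libraries as CPM, with a median log2 ratio of -0.07. With TMM and median-of-ratios scaling 1 was lower in SAP, Stat5a, a factor activated by IL-2, IL-7 and IL-15, at 0.81 and 0.82 times, against 0.87 times as CPM. In CD4 over gamma delta cells 3 were higher and 2 lower, beside 6.52% and 13.6% of all genes (up to 4 per list are named). Jak2, the kinase of the IL-12 receptor chain Il12rb2, was 285 and 300 CPM in CD4 cells of SAP and Control, against 111 and 98.9 CPM in gamma delta cells (2.56 and 3.03 times). Jak3, the kinase bound to the common gamma chain, was 9.52 and 10.1 CPM, against 30.1 and 31.5 CPM (0.32 and 0.32 times). Stat5a was 122 and 137 CPM, against 63.9 and 66.8 CPM, and Stat3, a factor activated by IL-21 and IL-6, was 263 and 261 CPM, against 583 and 576 CPM.

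Of 12 feedback and STAT5 target genes 10 were eligible; as CPM 2 were higher and 0 lower in SAP, and with TMM and with median-of-ratios scaling 1 was higher and 2 were lower. The median log2 ratio was 0.09 as CPM and -0.01 and 0.01 with those scalings. Myc, a transcription factor of cell growth, was 26.5 CPM in SAP and 18.1 CPM in Control (1.47 times, 1.27 to 1.70), and stayed past 1.2-fold at 1.37 and 1.39 times with TMM and median-of-ratios scaling. Socs3, an inhibitor of cytokine signalling, was 25.7 and 20.2 CPM (1.27 times, 1.10 to 1.46), but 1.18 and 1.1996 times with those scalings, under the fold. Cish, an inhibitor induced by STAT5, was 60.1 CPM in SAP and 71.4 CPM in Control (0.84 times, 0.78 to 0.92), and Pim1, a kinase induced by STAT factors, 0.87 times (0.85 to 0.89). Both were within the fold as CPM and past it with the other scalings, Cish at 0.79 with TMM and 0.80 with median-of-ratios scaling and Pim1 at 0.81 and 0.82 times. Between gates, Bcl2, a survival gene, was 271 and 245 CPM in gamma delta cells of SAP and Control, against 114 and 89.2 CPM in CD8 alpha-beta cells (2.38 and 2.74 times). Ptpn6, the phosphatase SHP-1, was 145 and 138 CPM, against 48.8 and 45.4 CPM (2.97 and 3.04 times). In CD4 cells over gamma delta cells Bcl2 was 0.17 and 0.21 times, and Socs3 2.56 and 2.44, Cish 1.57 and 1.68 and Pim1 1.85 and 1.63 times.

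None of 11 ligand genes was eligible over all T cells. Il2 had 87 UMIs in SAP and 56 in Control, Il21 22 and 35 and Il7 20 and 12. Il15 had 1 and 3 UMIs and Il18 0 and 1, and Il12a, Il12b, Il9 and Il27 had 0 in both libraries. The cytokines that these receptors bind were thus nearly unread in the T cells themselves, at sums of 17459375 UMIs in SAP and 17497961 in Control.

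Across the 12 sums of 6 gates by 2 libraries, genes were ranked by the correlation of log2(CPM + 1) with 4 of the receptor genes, among 6289 eligible genes. These sums share libraries, cells of 1 gate and depth, so the values are descriptions. Il2rb ran most like Arrdc4 (Pearson r = 0.980), Epcam (0.974) and Rpn1 (0.972). Il7r ran most like Itgal (0.988), an integrin chain of T cells, St8sia1 (0.983) and Rgs10 (0.983). Il18r1 ran most like Izumo1r (0.987), Tnfrsf4 (0.977), the co-stimulatory receptor OX40, and Tiam1 (0.977), and Il2ra like the cytokine gene Il10 (0.970), Nebl (0.969) and Slamf1 (0.964). Among the receptor genes themselves, Il18r1 and Il18rap (0.97), Il2ra and Il18r1 (0.97) and Il2ra and Il18rap (0.94) ran together, and Il2rb ran opposite to Il7r (-0.92).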

How the data were processed

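UMI counts of 2 droplet libraries, SAP and Control, were analysed. The counts the authors deposited are whole numbers per gene and barcode, not normalized; per the file headers they come from Cell Ranger 7.1.0. Seurat and the build mm10 stand in the submitters' processing notes. The gene annotation is not given in the sources used here. Files held 5203 SAP and 5737 Control barcodes with 19144320 and 19142384 UMIs.

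Barcodes were kept from 500 UMIs and 300 genes upward, with mitochondrial UMIs up to 10% (5028 in SAP and 5665 in Control). Scrublet (scanpy 1.11.5; expected rate 0.8% per 1000 barcodes) marked 1 and 1 by its own threshold, so the top 202 and 257 scores were removed instead. T cells had at least 1 UMI of Cd3d, Cd3e or Cd3g. Sums per gate were scaled to CPM with exact Poisson intervals; ratios had exact conditional binomial intervals, and shares Clopper-Pearson intervals (scipy 1.17.1). The ratio and interval code was tested on simulated data. edgeR 4.0.16 gave TMM factors and DESeq2 1.42.0 median-of-ratios factors; neither was used for a test. Sequences and coordinates came from RefSeq tables of GRCm38.p6.

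The 10 receptor genes were always named; of the pathway lists, genes past 1.2-fold between libraries with an interval off 1, or past 1.5-fold between gates in both libraries (up to 4 per list), were named, and 3 most-like genes for Il2rb, Il7r, Il2ra and Il18r1. Cish, Pim1, Stat5a between libraries, Ifnar2 between libraries and the ligands were named after their values were seen. The receptor genes, lists, gates and pairs were chosen with earlier results of these data known. Alternatives changed scaling, cell and gene filters, doublets, gates and thinning. One planned split of CD4 cells is not reported here.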

Additional observations from a re-analysis of the deposited data

How the results depend on the processing

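Of 306 recomputed values 273 stayed near the reported one, and 0 turned the reported direction under an alternative run. These values were not split by gene, so they do not show that every receptor gene was checked in every comparison. All 15 gate calls made with stricter gates (2 UMIs, 3 for Trdc) were among the 18 reported, and all 18 were made again without doublet removal and with at least 1000 UMIs per cell. Receptor genes past 1.2-fold between libraries numbered 1 with no filter on low counts, against 0 as reported, and all genes past it 15887 of 27000, against 842 of 5682; the added genes have few UMIs by construction. Within gates, 7 values passed 1.2-fold with stricter gates and 2 without doublet removal (Il7r in CD8 alpha-beta cells in both, and Il2rb in CD4 cells), against 1. Stricter gates hold fewer cells. How many of all genes passed within or between the gates of these alternative runs was not counted. As reported, 15.4% to 39.8% of all genes passed 1.2-fold within the 4 gates, so these counts do not set the receptor genes apart. Shares with separate library intervals numbered 0 when thinned to 1000 UMIs and 2 with no thinning, against 1 (Il2rb); the 2 were Il2rg and Il7r, both higher in SAP, and the Il2rb intervals overlapped. Pairs with separate intervals numbered 3 when thinned to 1000 UMIs, against 5. Those of Il2ra with Il2rb and Il2rb with Il18r1 were lost. Neither the shares nor the pairs with separate intervals were counted over all genes. State calls were 15 with 2 UMIs of the state gene, 12 of them shared with the 13 reported. No paired analysis was possible because each group has 1 library. For the same reason no replicate could be left out.

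Depth limits the scarce chains: Il2ra, Il15ra and Il18rap had 99 to 170 UMIs per library over all T cells, and the CD4 gate held 164 SAP and 183 Control cells. A gate on 1 UMI misses cells whose transcript was not caught. Counting intervals do not hold the spread between cultures, so no difference between SAP and Control can be told apart from a difference between 2 libraries.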
